A study of Rattus norvegicus with 12 samples.

Results

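DNA methylation was compared between the epithelial and the stromal cells of the ventral prostate in unexposed-lineage (control) rats, using 3 epithelial and 3 stromal control lineage pools of the 12 pools in the series. The features were the autosomal 100 bp windows holding 20 or more reads when the 6 pools were added together, which were 5835619 of 26187330 autosomal windows, and the 10 kb bins of the same reads with 100 or more in all, which were 257683 of 261882 bins. No measured difference entered the choice of these features.

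The ventral prostate of the rat is built of secretory epithelial ducts set in a stroma of fibroblasts, smooth muscle and other cells, and the stroma passes androgen-dependent signals to the epithelium during growth. DNA methylation marks cytosines, mostly in CpG dinucleotides, and its pattern differs between cell types at promoters, enhancers and gene bodies. Methylated DNA immunoprecipitation (MeDIP) pulls down DNA fragments with an antibody to methylated cytosine, so the number of reads over a position rises with its methylation and with its density of CpG sites. The counts were therefore compared between pools at the same position and not between positions.

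The rats were F3 generation males of the outbred strain Hsd:Sprague Dawley SD, taken at 19 to 21 days of age according to the cell isolation protocol, while the breeding protocol gives a slightly wider range, and before the age at which disease appears in this model. Their great-grandmothers, the F0 generation, had received daily intraperitoneal injections on gestation days 8 to 14, with the DMSO vehicle in the control lineage and with vinclozolin, an antiandrogenic fungicide, at 100 mg per kg body weight in the vinclozolin lineage. No F3 animal was injected. Each pool combined the prostates of several rats, which were digested with collagenase and split into epithelial and stromal cells by settling under gravity and low-speed centrifugation. By the study's methods each group of rats gave both an epithelial and a stromal sample, so epithelial and stromal pools share rats, but the labels do not state that equal pool numbers mark the same rats. Either fraction can hold cells of the other, as well as blood, vessel or nerve cells, and methylation counts give no direct measure of that mixture. The comparison has 3 pools against 3, so an exact permutation test on a single feature could not go below p = 0.1, and calls came from edgeR's quasi-likelihood test, which shares the estimate of spread across features.

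The total count ranged from 57135700 to 87262275 per control pool, and after scaling the factors between pools lay between 0.9932 and 1.0067. Over the 10 kb bins, log2 read levels correlated between pools at 0.95 to 0.968 within epithelial cells, 0.959 to 0.964 within stromal cells and 0.947 to 0.964 across the cell types, which is a description across bins with no test. The deposited counts stop at 300 per window. This value was reached by 6, 7 and 4 windows in the epithelial control pools and by 9, 11 and 16 in the stromal control pools. By the study's methods several libraries were run in each sequencing lane, but which ones shared a lane was not given in the sources used here. Whether lane follows cell type is therefore unknown, and an effect of lane could not be checked.

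At the 10 kb scale 300 bins differed between the cell types, 246 with more reads in the stromal pools and 54 with more in the epithelial pools (edgeR quasi-likelihood test, Benjamini-Hochberg adjusted p below 0.05). The called bins were 0.116% of the bins tested, with 0.0955% higher in stroma and 0.021% higher in epithelium. The median log2 ratio of epithelial over stromal reads was -0.68 in the stromal-higher bins and 0.63 in the epithelial-higher bins, against a median of 0.00123 over all bins. Called bins ranged from -1.57 to 1.24 on the log2 scale, and the smallest called difference was 0.40. All 300 had no overlap between the epithelial and the stromal pools, as did 13.7% of all bins tested. Over all bins 49.7% lay below 0, with quartiles at -0.10 and 0.11. The number called depended on which pools entered the fit. It was 69 without stromal pool 1, 69 without stromal pool 3, 99 without stromal pool 2, 131 without epithelial pool 2, 391 without epithelial pool 3 and 435 without epithelial pool 1. None of the 300 bins changed sign in any of these fits, an outcome that the lack of overlap between their pools had all but fixed.

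The 5 stromal-higher bins with the largest ratio held between 2.55 and 2.97 times as many reads in stroma. The bin chr16:36360001-36370000 (build Rnor 6.0, as for all positions in bins and windows) had 0.188, 0.353 and 0.371 CPM (reads per 1000000 autosomal reads of the pool) in the epithelial pools and 0.924, 0.803 and 1.04 CPM in the stromal pools, a log2 ratio of -1.57 ± 0.32 (SE, n = 3 and 3, edgeR adjusted p = 0.0167). It is also a bin with few reads, and its call was lost in 5 of the 6 fits that left out a pool, with adjusted p up to 0.174. The bin chr3:95130001-95140000 had 0.684, 0.987 and 0.928 CPM in epithelium against 2.48, 2.3 and 2.47 CPM in stroma, a log2 ratio of -1.46 ± 0.20 (edgeR adjusted p = 5.35e-05). It stayed called whichever pool was left out. The bin chr7:126560001-126570000 had 0.462, 0.975 and 1.18 CPM in epithelium against 3.02, 2.26 and 1.91 CPM in stroma, a log2 ratio of -1.42 ± 0.23 (edgeR adjusted p = 0.000678), and was lost only without stromal pool 1 (adjusted p = 0.0737).

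The strongest call of the whole comparison was the bin chr2:233600001-233610000. Its epithelial pools had 1.32, 2.5 and 2.08 CPM and its stromal pools 5.56, 5.11 and 4.9 CPM, so that the lowest stromal pool held well above the highest epithelial pool. The log2 ratio was -1.37 ± 0.15 (edgeR adjusted p = 5.95e-07), and the call held without each pool in turn. The last of the 5, chr15:61770001-61780000, had 0.376, 0.764 and 0.457 CPM in epithelium against 1.52, 1.77 and 0.913 CPM in stroma, a log2 ratio of -1.35 ± 0.28 (edgeR adjusted p = 0.0187). It lost its call in 3 of the 6 fits without a pool: adjusted p was 0.0576 without epithelial pool 3, 0.187 without stromal pool 1 and 0.274 without stromal pool 2.

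The 5 epithelial-higher bins with the largest ratio held between 1.85 and 2.36 times as many reads in epithelium. The largest was chr1:115230001-115240000, with 1.68, 1.37 and 0.885 CPM in the epithelial pools and 0.797, 0.498 and 0.393 CPM in the stromal pools, a log2 ratio of 1.24 ± 0.28 (edgeR adjusted p = 0.0458). The lowest epithelial and the highest stromal pool nearly met, and the call was lost in 5 of the 6 fits without a pool, with adjusted p up to 0.38. The bin chr11:41470001-41480000 had 2.52, 1.97 and 2.2 CPM in epithelium and 1.16, 1.11 and 1.03 CPM in stroma, a log2 ratio of 1.02 ± 0.19 (edgeR adjusted p = 0.00807). It kept its call without each epithelial pool and lost it without each stromal pool, with adjusted p of 0.0588 without pool 1, 0.0616 without pool 2 and 0.108 without pool 3.

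The bin chr10:94290001-94300000 had 3.25, 3.31 and 2.88 CPM in epithelium and 1.3, 1.62 and 1.92 CPM in stroma, a log2 ratio of 0.95 ± 0.16 (edgeR adjusted p = 0.00196, and 0.0704 without stromal pool 1). The bin chr4:42770001-42780000 had 3.68, 2.81 and 2.44 CPM against 1.97, 1.57 and 1.17 CPM, a log2 ratio of 0.93 ± 0.18 (edgeR adjusted p = 0.0105, and 0.0613 without epithelial pool 1, 0.0873 without stromal pool 2 and 0.229 without stromal pool 3). In both bins every epithelial pool lay above every stromal pool. The bin chr11:15850001-15860000 had 3.42, 3.71 and 3.8 CPM against 1.87, 2.34 and 1.73 CPM, a log2 ratio of 0.88 ± 0.15 (edgeR adjusted p = 0.00151, and 0.0677 without stromal pool 3). No listed gene start lay within 10 kb of any of these 10 bins. Only genes placed from the study's own lists could be checked, so other genes may lie there.

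The vinclozolin lineage pools came from other rats and entered none of the calls, so the same bins could be read in them as a second set of prostates that differed in ancestral exposure. Of the 300 bins, 293 (97.7%) leaned the same way there, against 56.8% of all bins tested. In 243 (81%) all 3 epithelial pools lay on the same side of all 3 stromal pools as in the control lineage. Of all bins, 12.3% separated in the vinclozolin pools on the side of their control ratio. That share also counts bins whose control pools overlapped, whereas all 300 called bins were free of such overlap. The stromal-higher bins leaned the same way in 242 of 246 cases (98.4%), with a median log2 ratio of -0.54, and 205 (83.3%) separated without overlap. The epithelial-higher bins leaned the same way in 51 of 54 cases (94.4%), with a median of 0.36, and 38 (70.4%) separated. The difference was smaller in the vinclozolin pools than in the control pools in 236 of the 300 bins, which were chosen on the control pools.

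**Figure D1:**
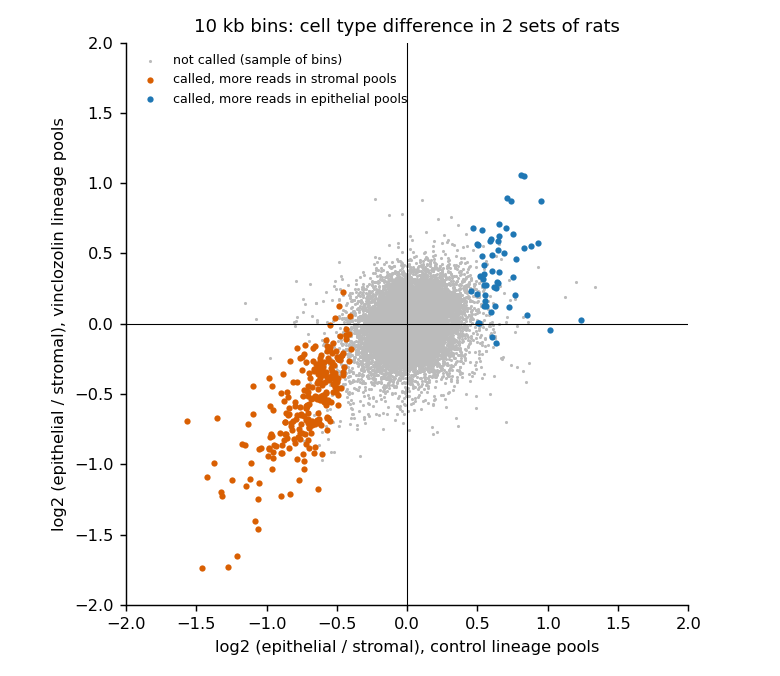
Log2 ratio of epithelial over stromal reads per 10 kb bin in the control lineage pools (x axis) and the vinclozolin lineage pools (y axis). Grey points are a sample of the bins that were not called, orange points the 246 bins called higher in stroma and blue points the 54 called higher in epithelium, and 293 of the 300 coloured points have the same sign on both axes.

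The bins with the largest ratio in each direction, and the next epithelial-higher bin, did not separate the cell types in the vinclozolin lineage. At chr16:36360001-36370000 the vinclozolin epithelial pools had 0.614, 0.329 and 0.222 CPM and the stromal pools 0.769, 0.635 and 0.448 CPM, a log2 ratio of -0.69 in the same direction as in the control lineage. At chr1:115230001-115240000 the vinclozolin epithelial pools had 1.06, 1.16 and 1.15 CPM and the stromal pools 1.06, 1.05 and 1.23 CPM, a log2 ratio of 0.03. At chr11:41470001-41480000 they had 1.79, 1.67 and 1.78 CPM in epithelium and 2.03, 1.64 and 1.73 CPM in stroma, a log2 ratio of -0.05. At both epithelial-higher bins the pools of the cell types were intermixed. A further test, over all 12 pools, asked whether the difference between the cell types was the same in both lineages. It called 0 of 257683 bins, with 17344 at an unadjusted p below 0.05 (edgeR quasi-likelihood test, no other tool run). Methylation was not compared between the lineages within a cell type. Among the 300 called bins, which were chosen on the control pools, 66 had an unadjusted p below 0.05. By this edgeR test the unadjusted p was 0.000564 at the chromosome 1 bin, 4.01e-05 at the chromosome 11 bin and 0.0545 at the chromosome 16 bin, and the adjusted p was 0.576, 0.576 and 0.751. At chr4:131460001-131470000, a stromal-higher bin named after its values were seen as one that separated in both lineages, the pools had 1.21, 1.88 and 2.15 CPM in control epithelium against 3.95, 3.87 and 4.44 CPM in control stroma, and 1.57, 1.17 and 1.07 CPM against 4.16, 3.86 and 3.92 CPM in the vinclozolin lineage.

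Gene positions on this build could be placed for 402 genes, all of them genes that the study lists for a difference in RNA between the lineages, so they are no random sample of the genome. The listed start is the lower coordinate, so for a gene on the minus strand it marks the 3′ end of the transcript and not the promoter. The bin holding the listed start of a gene was called for 6 of the 402 (1.49%, against 0.116% of all bins tested). In 5 of them, Cd24, Prdx2, Mlph, Akr7a2 and Pigr, more reads fell in stroma, and in 1, Dcn, more fell in epithelium. Over all 402 genes the median log2 ratio was -0.05 and 61.4% of the genes lay below 0, with a median summed count of 1412.5 per bin against 1324 over all bins. Called bins had a median summed count of 1475.

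The 3 promoters below belong to called genes that read to the right, so that the listed start is the 5′ end of the transcript. They show how far the CpG density varied between the promoters of these genes. The promoters were matched by gene symbol, and whether they lie inside the called bins was not checked. The sequences are from RefSeq on the build GRCr8, from 250 bases before to 50 bases after the gene start, with each CG dinucleotide in capitals.
Cd24 promoter, chr20:48656227-48656526, plus strand: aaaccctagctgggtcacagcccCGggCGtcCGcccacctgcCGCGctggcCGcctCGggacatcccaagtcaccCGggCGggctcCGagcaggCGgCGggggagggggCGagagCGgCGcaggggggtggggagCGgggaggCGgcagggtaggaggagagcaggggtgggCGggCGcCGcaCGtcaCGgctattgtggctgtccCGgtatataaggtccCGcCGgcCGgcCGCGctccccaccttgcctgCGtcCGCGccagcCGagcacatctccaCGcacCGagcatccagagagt
Akr7a2 promoter, chr5:156835339-156835638, plus strand: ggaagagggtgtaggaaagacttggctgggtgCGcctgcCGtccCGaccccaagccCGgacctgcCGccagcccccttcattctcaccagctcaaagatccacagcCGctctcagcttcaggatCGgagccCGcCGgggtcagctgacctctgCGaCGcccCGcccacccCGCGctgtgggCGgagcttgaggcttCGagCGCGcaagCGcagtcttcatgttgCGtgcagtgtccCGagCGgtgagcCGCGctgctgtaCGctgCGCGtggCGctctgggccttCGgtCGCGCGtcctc
Pigr promoter, chr13:44850932-44851231, plus strand: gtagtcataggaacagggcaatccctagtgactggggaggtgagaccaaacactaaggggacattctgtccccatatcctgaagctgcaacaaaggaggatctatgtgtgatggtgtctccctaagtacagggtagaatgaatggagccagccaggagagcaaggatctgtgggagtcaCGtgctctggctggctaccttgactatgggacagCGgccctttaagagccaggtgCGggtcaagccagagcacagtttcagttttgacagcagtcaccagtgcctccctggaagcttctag
The Cd24 promoter held 34 CG and the Akr7a2 promoter 32, numbers reached by 6.8% and 8.4% of the 33469 rat promoters in the table. The Pigr promoter held 3, fewer than the median of 7, and 77.7% of promoters held as many or more. CG reads the same on both strands, and 94.5% of promoters of this length held at least 1. The promoter of Prdx2, which lies on the minus strand, held 27, and Mlph and Dcn had no entry in the table.

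Cd24 encodes a small glycoprotein of the cell surface that is carried by many epithelia. Its bin, chr20:48330001-48340000, had 2.98, 2.9 and 3.84 CPM in the epithelial pools and 6.46, 4.37 and 5.7 CPM in the stromal pools. All stromal pools lay above all epithelial pools, and the means were 3.24 ± 0.52 and 5.51 ± 1.06 CPM (SD, n = 3 each), a log2 ratio of -0.77 ± 0.13 (SE, edgeR adjusted p = 0.00197). The vinclozolin pools gave -0.78, with 3.49, 2.87 and 2.67 CPM in epithelium against 4.39, 5.6 and 5.55 CPM in stroma. Adjusted p was 0.058 without epithelial pool 2, 0.127 without stromal pool 1 and 0.061 without stromal pool 3.

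Pigr encodes the polymeric immunoglobulin receptor, which carries IgA across secretory epithelia. Its bin, chr13:47560001-47570000, had 1.85, 2.02 and 2.3 CPM in epithelium and 3.84, 3.19 and 2.94 CPM in stroma, a log2 ratio of -0.68 ± 0.15 (edgeR adjusted p = 0.0413). The stromal pools were all higher, but this was the weakest of the 6 gene calls and was lost in 5 of the 6 fits without a pool, with adjusted p from 0.0717 without epithelial pool 1 to 0.342 without stromal pool 1. In the vinclozolin lineage the ratio was -0.54, and the epithelial pools (2.54, 2.32 and 1.67 CPM) again lay below the stromal pools (3.03, 3.14 and 3.4 CPM).

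Mlph encodes melanophilin, which links Rab27 on vesicles to myosin. Its bin, chr9:98070001-98080000, had 3.8, 4.47 and 3.7 CPM in epithelium and 5.47, 6.2 and 6.03 CPM in stroma, a log2 ratio of -0.56 ± 0.11 (edgeR adjusted p = 0.0156), with adjusted p up to 0.169 in the 4 fits without a pool that lost the call. Akr7a2 encodes an aldo-keto reductase that reduces aldehydes, and its bin, chr5:157750001-157760000, had 2.33, 3.43 and 3.41 CPM in epithelium and 5, 4.4 and 5.02 CPM in stroma, a log2 ratio of -0.64 ± 0.13 (edgeR adjusted p = 0.0198), with adjusted p up to 0.21 in the 4 fits that lost it. Both bins separated the same way in the vinclozolin lineage, at -0.38 and -0.42.

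Prdx2 encodes a peroxiredoxin that removes hydrogen peroxide. Its bin, chr19:26080001-26090000, had 3.7, 4.09 and 4.71 CPM in epithelium and 6.79, 6.61 and 6.03 CPM in stroma, a log2 ratio of -0.63 ± 0.11 (edgeR adjusted p = 0.00311, and 0.0704 without stromal pool 1 and 0.0526 without stromal pool 2). The vinclozolin ratio was -0.46, again without overlap. The gene lies on the minus strand, so its listed start, the lower coordinate, is the 3′ end of the transcript. Its position is also the least well supported of the 6, being 1367 kb from the local shift between the builds. The other 5 lay at 177.2 kb (Cd24), -74.8 kb (Akr7a2), 64.1 kb (Pigr), 22.4 kb (Mlph) and 0.0 kb (Dcn). Of these only Dcn lay within the 10 kb width of a bin.

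Dcn encodes decorin, a small proteoglycan of the extracellular matrix made by fibroblasts, and was the only gene of the 6 with more reads in epithelium. Its bin, chr7:38740001-38750000, had 2.98, 2.77 and 3.23 CPM in the epithelial pools and 1.99, 1.53 and 1.55 CPM in the stromal pools, with means of 2.99 ± 0.23 and 1.69 ± 0.26 CPM (SD, n = 3 each). The log2 ratio was 0.83 ± 0.16 (SE, edgeR adjusted p = 0.0116), and adjusted p was 0.0534 without epithelial pool 3, 0.13 without stromal pool 2 and 0.148 without stromal pool 3. The vinclozolin pools had 2.4, 2.79 and 2.49 CPM in epithelium against 1.8, 1.72 and 1.79 CPM in stroma, a log2 ratio of 0.54. Its neighbour Lum, which encodes the related proteoglycan lumican, was not called and gave -0.20 (edgeR adjusted p = 0.701). The Lum bin had 3.01, 3.53 and 3.28 CPM in epithelium and 3.88, 3.84 and 3.62 CPM in stroma. Its stromal pools thus all lay above its epithelial pools, as they did in the vinclozolin lineage, at -0.24.

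**Figure D2:**
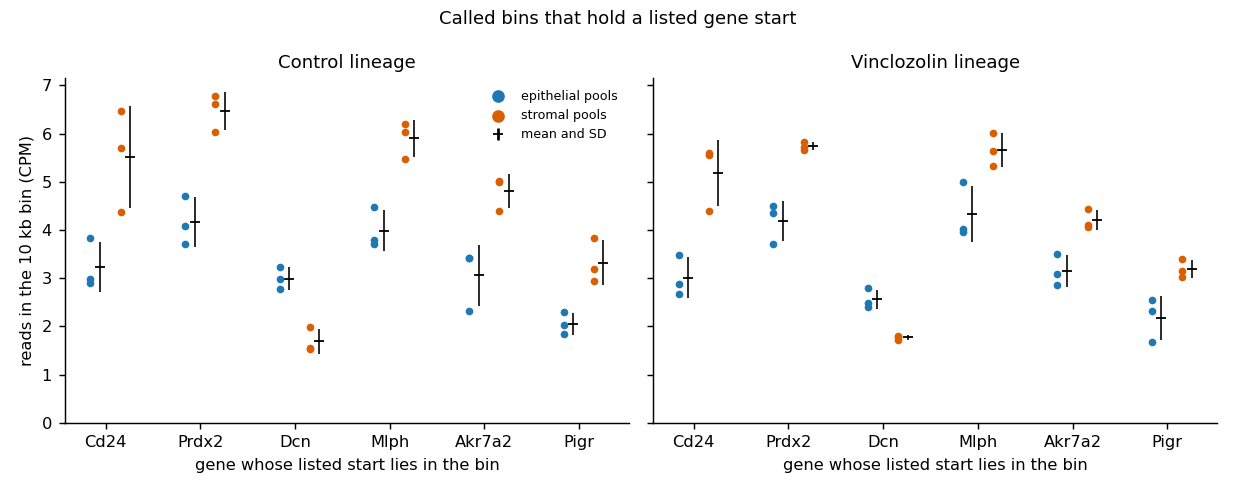
Reads in the 10 kb bin of each of the 6 called genes, in CPM on a linear axis, for the control lineage (left) and the vinclozolin lineage (right). Each point is a pool and the black marks are the mean and SD of 3 pools, and at every gene the epithelial (blue) and stromal (orange) points do not overlap in either lineage.

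The region of 1 kb either side of the listed start gave fewer reads and a less even picture. At Mlph the epithelial pools had 19, 39 and 49 reads counted over the 100 bp windows and the stromal pools 68, 69 and 74, a log2 ratio of mean CPM of -1.19 without overlap. At Pigr they had 36, 55 and 45 against 85, 65 and 79, a log2 ratio of -0.96, and at Prdx2 8, 19 and 14 against 18, 21 and 31, a log2 ratio of -0.97, both without overlap once scaled to CPM. At Cd24, Akr7a2 and Dcn the pools overlapped in this narrow region, with log2 ratios of -0.51, -1.10 and 0.70. For these 3 genes the called difference of the bin was thus not resolved at the listed start itself.

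**Figure D3:**
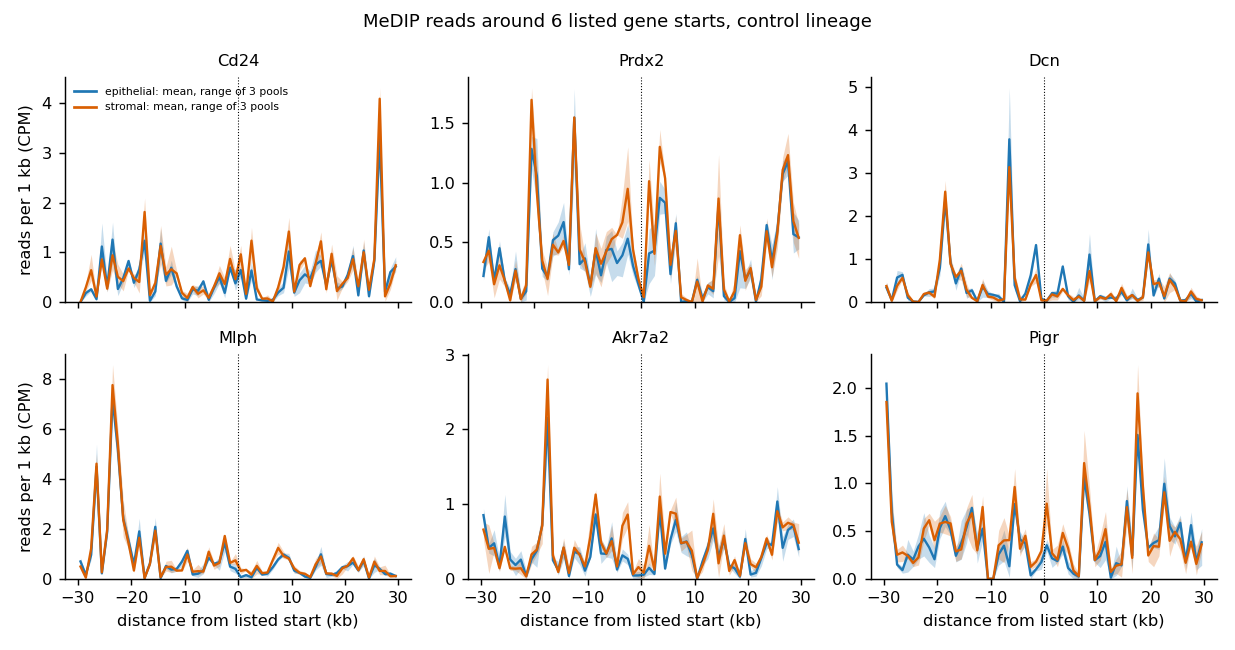
Reads per 1 kb, in CPM, against the distance in kb from the listed start of each of the 6 genes in the control lineage. Lines are the mean of 3 pools and shading their lowest to highest pool, blue for epithelium and orange for stroma, and the dotted line marks the listed start with larger coordinates to its right. Most peaks are shared by both cell types, and at the genes other than Dcn the difference is spread over several of the 1 kb steps. At Dcn it lies mostly at the steps at -1.5 and 3.5 kb. The step at -1.5 kb had 1.317, 1.316 and 1.342 CPM in epithelium against 0.6519, 0.7867 and 0.4496 CPM in stroma. The step at 3.5 kb had 0.787, 0.8931 and 0.7992 CPM against 0.326, 0.2569 and 0.3372 CPM.

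Of the genes with known roles in prostate cell identity, signalling or other cell types, 17 of 350 had a position, so no list could be summarised as a whole. Dcn was the only one in a called bin. Among epithelial genes, the bins of the transcription factors Grhl3 (log2 ratio 0.11, edgeR adjusted p = 0.826) and Hoxb13 (-0.05, 0.968) and of the trafficking genes Rab25 (-0.09, 0.899) and Mal2 (0.09, 0.922) did not pass the test. Among stromal genes the same held for the muscle coactivator Myocd (0.09, edgeR adjusted p = 0.916), the actin-binding Synpo2 (0.17, 0.689) and the transcription factors Prrx1 (0.10, 0.863), Snai2 (-0.05, 0.972) and Zeb1 (-0.15, 0.81). The glucocorticoid receptor Nr3c1 gave -0.04 (edgeR adjusted p = 0.952), the hedgehog effector Gli2 0.02 (0.982) and the transcription factor Nfia 0.58 (0.358). The leukocyte gene Lcp1, which encodes plastin, gave -0.15 (edgeR adjusted p = 0.85). Such values do not show that the cell types are alike there.

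Within 50 kb of a listed start, 19 of the 402 genes had a called bin (4.73%, against 1.12% of all bins tested), of which 13 lay outside the gene's own bin. The bin chr10:84020001-84030000 next to Hoxb13, a homeobox gene of the prostate lineage, had 8.09, 7.09 and 6.68 CPM in epithelium and 4.27, 4.46 and 5.45 CPM in stroma, a log2 ratio of 0.61 ± 0.11 (edgeR adjusted p = 0.00357, and 0.111 without stromal pool 1 and 0.0824 without stromal pool 2), while the bin of the listed start gave -0.05. In the vinclozolin pools the same bin gave 0.26. The bin chr18:52920001-52930000 near Slc12a2, the sodium-potassium-chloride cotransporter of secretory cells, had means of 2.05 ± 0.58 CPM in epithelium and 3.73 ± 0.34 CPM in stroma (SD, n = 3 each), a log2 ratio of -0.85 (edgeR adjusted p = 0.00648), and the bin chr10:91700001-91710000 near Rprml gave -0.96 (adjusted p = 0.00807). The others, near Clptm1, Papss2, Ssr2, Anapc1, Eno2, Lyc2, Cbr3, Pomp, Ppil1 and Ipmk, were higher in stroma except at Ssr2, where the log2 ratio was 0.78 (edgeR adjusted p = 0.0232).

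Called bins were mostly single. Joining called bins of 1 direction that lay at most 50 kb apart gave 260 runs, of which 230 held 1 bin, 23 held 2 and 7 held 3 or more. All 7 longer runs, which together held 24 called bins, had more reads in stroma. The longest, chr8:53000001-53100000, had 5 called bins of 10, and all 10 leaned to stroma. Summed over the run the epithelial pools had 31.9, 40.2 and 43.8 CPM and the stromal pools 60.4, 55.3 and 61 CPM, and the vinclozolin pools spanned 35.2 to 39.8 CPM in epithelium and 50.7 to 54.6 CPM in stroma.

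At chr3:61580001-61620000 all 4 bins were called, with 7.78, 9.19 and 10.9 CPM in epithelium against 16.9, 16.1 and 17.3 CPM in stroma. At chr2:233600001-233630000, around the strongest single bin, all 3 were called, with 4.33, 7.78 and 7.04 CPM against 14, 13.2 and 13.2 CPM, a log2 ratio of means of -1.08 in the control and -0.93 in the vinclozolin lineage. This was the steepest of the 7 runs. The other 4, chr5:165690001-165750000, chr7:76010001-76070000, chr14:43700001-43780000 and chr19:53000001-53060000, had 3 called bins each and log2 ratios of means of -0.48, -0.34, -0.40 and -0.60, with -0.35, -0.50, -0.36 and -0.59 in the vinclozolin lineage. In none of the 7 runs did the epithelial pools overlap the stromal pools in either lineage, and no listed gene start lay within 100 kb of any of them.

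**Figure D4:**
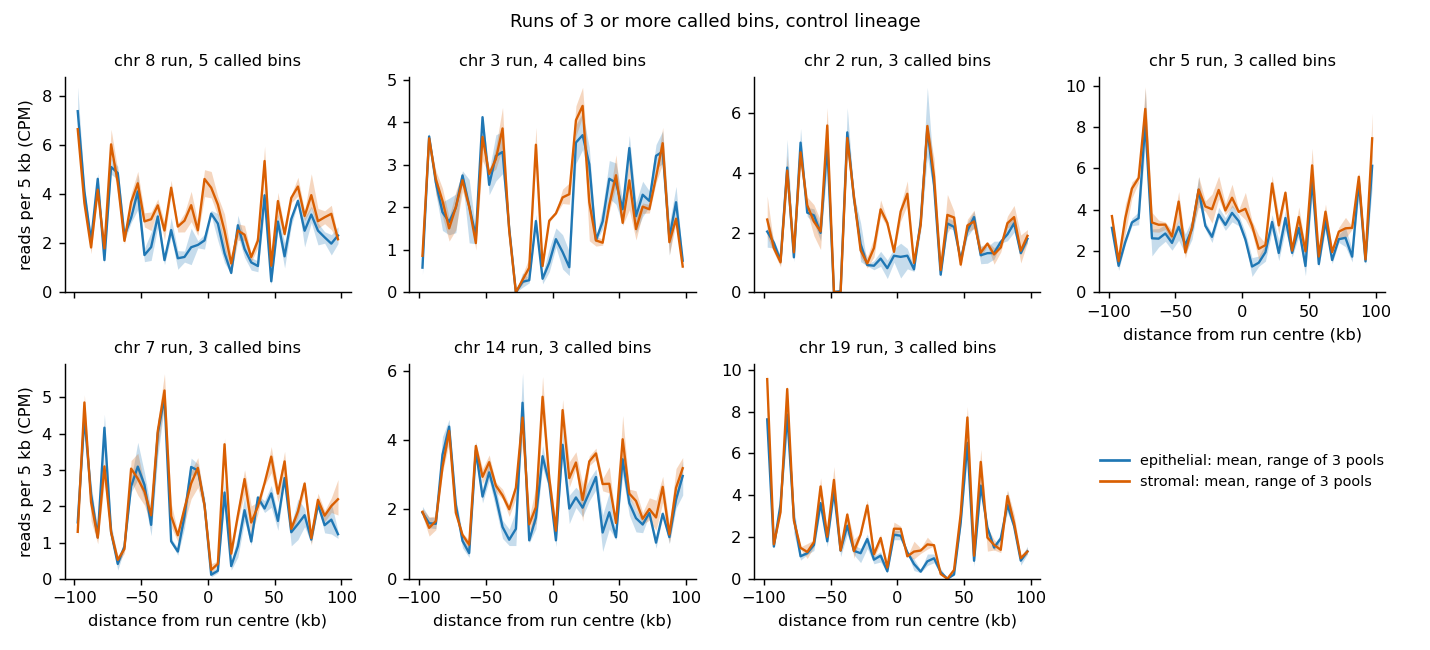
Reads per 5 kb, in CPM, against the distance in kb from the centre of each of the 7 runs of 3 or more called bins in the control lineage. Lines are the mean of 3 pools and shading their lowest to highest pool, with stroma (orange) above epithelium (blue) over most of each run.

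Called bins lay on every autosome, from 0.0616% of the bins tested on chromosome 6 to 0.253% on chromosome 12, where 12 of 13 were higher in stroma. Chromosomes 14, 15 and 19 had 13, 9 and 12 called bins and none of them was higher in epithelium. Chromosome 9 was the only one with more epithelial-higher (5) than stromal-higher bins (4). The median log2 ratio of all bins of a chromosome lay between -0.05 on chromosome 12 and 0.01 on chromosome 2. It also moved slightly with read number, from 0.04 in the decile of bins with the fewest reads to -0.03 in the decile with the most, and in the vinclozolin pools these deciles gave -0.04 and -0.02. In between, the vinclozolin median rose to 0.02 in decile 8, while the control median fell at each step. Counts of calls by chromosome and by read number were not tested against each other.

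**Figure D5:**
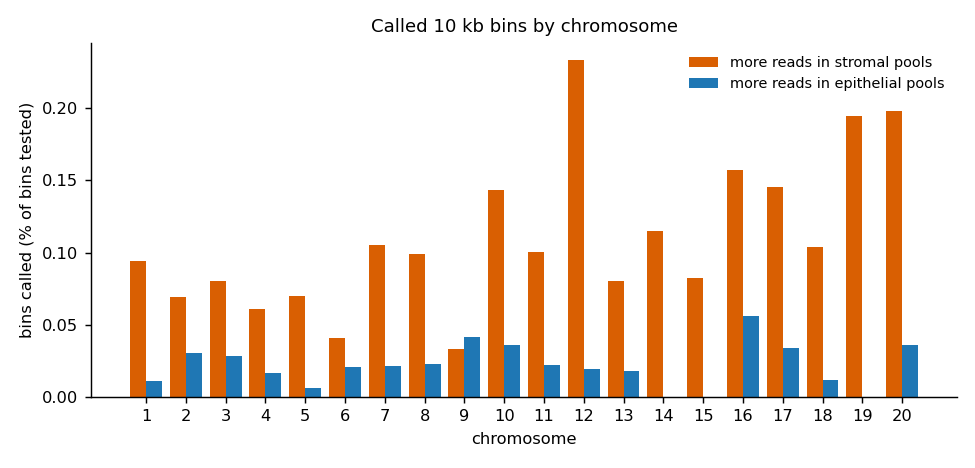
Percent of the 10 kb bins tested on each autosome that were called with more reads in stroma (orange) or in epithelium (blue). Stromal-higher bins are the larger share on each chromosome except chromosome 9, and chromosomes 14, 15 and 19 have no epithelial-higher bin.

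At the finer scale of 100 bp, 12 of 5835619 windows were called (0.000206%), 11 with more reads in stroma (0.000188%) and 1 with more in epithelium (1.71e-05%), by edgeR's quasi-likelihood test with Benjamini-Hochberg adjustment. An unadjusted p below 0.05 was reached by 379328 windows (6.5%). The median summed count of a window was 36 over 6 pools, and the called windows held 26 to 106 reads. In 11 of the 12 the cell type with fewer reads held under 20 over its 3 pools, so these windows passed the filter of 20 reads only through the cell type where they are high. No 2 called windows lay within 1000 bp of each other. Calls were lost when a pool was left out, with 0 called without epithelial pools 1 or 3 and without stromal pools 1 or 3, and 1 remaining without epithelial pool 2 and 1 without stromal pool 2. The unadjusted counts in those fits were 275593 to 380254. At chr8:49333001-49333100 the log2 ratio was -2.53 to -2.27 over those fits against -2.41 with all pools, and at chr7:37861901-37862000 it was -4.66 to -3.08 against -3.59. With the pool number as a replicate block the call was kept by the epithelial-higher window alone (adjusted p = 0.0427), and the 11 stromal-higher windows had adjusted p from 0.0802 to 0.1.

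The only epithelial-higher window, chr16:89054101-89054200, had 20, 18 and 23 reads in the epithelial pools and 4, 1 and 2 in the stromal pools, a log2 ratio of 2.89 ± 0.46 (SE, edgeR adjusted p = 0.0422). In the vinclozolin lineage it had 12, 15 and 12 reads against 13, 11 and 6, with a log2 ratio of mean CPM of 0.56, which comes from no fit. Scaled to CPM, these pools did not overlap. All 12 called windows leaned the same way in the vinclozolin lineage, against 54.5% of all windows tested. Without overlap the same way were 11 of them, against 8.21% of all windows. Among the stromal-higher windows, chr8:49333001-49333100 had 4 reads in each epithelial pool and 19, 17 and 22 in the stromal pools, a log2 ratio of -2.41 ± 0.40 (edgeR adjusted p = 0.0422). The window chr1:87408101-87408200 had no read in any epithelial pool and 8, 9 and 9 reads in the stromal pools, which is at least 9.81-fold lower in epithelium when a floor of 3 reads is set over the 3 epithelial pools together. This bound covers counting error only. Without a stromal pool it fell under the filter of 20 reads, so it was refitted in 3 of the 6 fits without a pool. In the vinclozolin lineage it had 1 read in each epithelial pool and 6, 3 and 2 reads in the stromal pools, a log2 ratio of mean CPM of -1.66.

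1 called window lay in a called bin. The window chr5:165741601-165741700 had 2, 8 and 4 reads in epithelium against 18, 22 and 22 in stroma, a log2 ratio of -2.30 ± 0.38 (edgeR adjusted p = 0.0422), inside the run on chromosome 5, where its bin gave -0.67. In the vinclozolin pools it had 8, 7 and 5 reads against 25, 18 and 16.

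Pooled over the called bins, the difference was spread over many windows. Whether a given bin rests on a few 100 bp windows was not examined, but in 1 kb steps the Dcn difference lay mostly at -1.5 and 3.5 kb from the listed start. In the stromal-higher bins 85.6% of the 6139 windows tested had more reads in stroma, and in the epithelial-higher bins 13.6% of 1394 did, against 50.5% of all windows. The bins were called on the sums of these windows, so this describes how the difference was spread and is no second test.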

How the data were processed

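MeDIP libraries of 12 pools were sequenced by the study, and the authors deposited counts of mapped reads per 100 bp window of the rat genome (build Rnor 6.0), made with MEDIPS, which calls edgeR, after Trimmomatic and Bowtie2 per the labels and the study's methods. How read duplicates were treated is not given in the sources used here, and a read that overlaps more than 1 window can count in each. RPKM columns and the authors' own comparison columns (means, fold changes and p-values between lineages) were not used.

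Counts of the 6 control pools were joined by window and summed into 10 kb bins. The epithelial and the stromal counts were deposited as separate sets. Any difference in how the sets were made cannot be told apart from cell type. Each level was tested with edgeR 4.0.16 (R 4.3.3), using the quasi-likelihood test with TMM factors from the bins, cell type as the only term and Benjamini-Hochberg adjustment over all features tested, called at 0.05. CPM is per 1000000 autosomal counts after TMM scaling, and log2 ratios are epithelial over stromal. The code was tested on simulated data. The dispersion trend of the windows came from 100000 windows drawn at random. DESeq2 1.42.0 and the edgeR exact test were alternatives, with other scalings, filters and bin edges, the pool number as a block and each pool left out in turn.

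Named bins were the 5 with the largest log2 ratio in each direction, and named regions were to hold at least 3 called windows, which none did. The 6 genes in called bins, the neighbouring bins, the runs of bins, the single windows and chr4:131460001-131470000 were named after their values were seen. The test of whether the cell type difference was the same in both lineages was added then. The members and lists were chosen with earlier results of these data known.

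By the study's methods each group of rats gave both cell types, but the labels do not say that equal pool numbers share rats, so no block entered the main test. P-values weigh the difference against a spread between pools that the test shares across features. Each pool combines several rats, so they do not measure the spread between single rats.

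Gene starts on Rnor 6.0 came from the study's supplementary transcript lists, whose text was read from page images. They are the lower coordinates whatever the strand. Of 509 symbols, 427 were autosomal and on the same chromosome in GRCr8, and 402 were also within 1.5 Mb of the local order there. A misread digit smaller than that would go unseen. Annotation of Rnor 6.0 was not used here, so promoters were not tested. The floor of 3 reads covers counting error only. Some genes of the lists are not reported here.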

Additional observations from a re-analysis of the deposited data

How the results depend on the processing

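The 300 bins became 277 without TMM, 335 with loess offsets, 295 without a filter, 222 with at least 1000 reads, 236 with DESeq2 and 349 with bin edges shifted by 5 kb. Of the 300, 266 were kept without TMM, 283 with loess offsets, 217 with at least 1000 reads and 231 with DESeq2. The longer lists without epithelial pool 1 and without epithelial pool 3 kept 208 and 227 of them. No called bin changed sign in any refit of the same bins, for which the lack of overlap between their pools left little room. The share of called bins higher in epithelium, 18%, was 23.5% without TMM and 23% with loess offsets, and 5.8% to 27.8% with 1 pool left out, when 69 to 435 bins were called. With the pool number as a replicate block 415 bins were called, among them all 300, and the share was 21.9%. Deviations from the group means correlated at -0.027 to 0.01 for pools of the same number and at -0.02 to 0.02 for other numbers. Taken over all bins, this did not set equal numbers apart. It cannot show whether a smaller set of bins follows the rats that the pools share. The 12 windows, and the 12 regions they formed, depended more on the settings. With at least 40 reads there were 47 windows in 44 regions, without a filter 45 in 43, and with the edgeR exact test 153 in 139, of which 116 were higher in stroma. The replicate block left 1 window in 1 region (100% higher in epithelium), with 335167 at an unadjusted p below 0.05. With 1 pool left out 0 to 1 windows and 0 to 1 regions remained and the share higher in epithelium was 0% to 100%, and the cause was not tested. Among single named values, 216 of the bins' refits kept the call and 48 lost it, as did 85 and 79 of the windows' refits. None reversed, which was hardly possible, since the pools of the cell types did not overlap in these features. The test of gene promoters was not run because no Rnor 6.0 annotation was used here. The median summed count over 6 pools was 36 for the windows and 1324 for the bins.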

Other observations

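Beside the bins with the largest ratios, several better covered bins had smaller ratios with small p-values, and they are given here as values, named after those were seen. In stroma, chr5:165720001-165730000 had 6.97, 6.74 and 8.19 CPM against 3.17, 4.05 and 4.2 CPM in epithelium, a log2 ratio of -0.93 ± 0.11 (SE, n = 3 and 3, edgeR adjusted p = 1.03e-05), and belonged to the run on chromosome 5. The bin chr17:34150001-34160000 had 6.46, 6.61 and 6.22 CPM in stroma against 3.2, 3.91 and 3.45 CPM in epithelium, a log2 ratio of -0.86 ± 0.11 (edgeR adjusted p = 3.84e-05). The bin chr12:42060001-42070000 had 5.36, 4.51 and 4.54 CPM in stroma against 1.68, 2.53 and 2.65 CPM in epithelium, a log2 ratio of -1.05 ± 0.14 (edgeR adjusted p = 5.35e-05). These 3 calls held without each pool in turn, with adjusted p of at most 0.00241, 0.00309 and 0.0115.

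Among bins with more reads in epithelium, chr9:63640001-63650000 had 6.35, 6.86 and 6.45 CPM in epithelium against 3.4, 3.84 and 4.73 CPM in stroma, a log2 ratio of 0.71 ± 0.11 (edgeR adjusted p = 0.000848, and 0.0545 without stromal pool 1). The bin chr6:77600001-77610000 had 5.49, 5.43 and 5.38 CPM in epithelium against 2.21, 4.11 and 2.92 CPM in stroma, so that the epithelial pools were nearly equal while the stromal pools spread widely. Its log2 ratio was 0.81 ± 0.14 (edgeR adjusted p = 0.00151, and 0.0958 without stromal pool 1 and 0.0596 without stromal pool 3). Both bins separated the same way in the vinclozolin lineage, at log2 ratios of 0.89 and 1.06. No listed gene start lay within 10 kb of these 5 bins.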
